A study of Mus musculus with 8 samples.

Results

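The immediate early factors examined here were 10 genes, Fos, Fosb, Fosl1, Fosl2, Jun, Junb, Nr4a1, Nr4a2, Nr4a3 and Egr1, taken by symbol from a table of 56884 annotated genes. All 10 were found, each as a single protein-coding entry, and all 10 had enough counts to be tested. They were measured by bulk sequencing of mRNA in Lacun3 cells, a line from a mouse lung adenocarcinoma. The groups were STK11 KO, Lacun3 cells in which Stk11 had been disrupted with CRISPR, and STK11 WT, the parental line, with 4 libraries each from untreated cultures in medium with serum, harvested while growing logarithmically. Stk11 encodes the kinase LKB1. The labels name 1 edited line and do not say whether it is a clone or a pool, so the comparison is between these lines. The study asked which transcripts differ inside the tumour cells when Stk11 is lost.

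Immediate early genes are switched on within minutes of a growth, stress or calcium signal, without new protein synthesis, and their mRNAs and proteins are short-lived. FOS and JUN proteins pair through a leucine zipper to form AP-1, a factor that binds DNA and controls genes of proliferation, invasion and inflammation. NR4A proteins are orphan nuclear receptors that act without a classical ligand, and EGR1 is a zinc finger factor induced through ERK and SRF. Several of these genes are known to respond to cAMP through CREB and its CRTC coactivators, which LKB1 restrains by way of the SIK kinases. In lung tumour cells AP-1, above all FRA1, the product of Fosl1, is known as a mediator of growth factor signalling.

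The upstream sequences of the NR4A genes and of the pair Fos and Fosb are shown because within each of these families members moved in opposite directions. Each run holds the 250 bases before an annotated transcription start, on the gene's own strand, from RefSeq with build GRCm38.p6. Any other start of a gene was not searched. Capitals mark every TGACG, the core of the cAMP response element to which CREB binds, on either strand.
Nr4a1: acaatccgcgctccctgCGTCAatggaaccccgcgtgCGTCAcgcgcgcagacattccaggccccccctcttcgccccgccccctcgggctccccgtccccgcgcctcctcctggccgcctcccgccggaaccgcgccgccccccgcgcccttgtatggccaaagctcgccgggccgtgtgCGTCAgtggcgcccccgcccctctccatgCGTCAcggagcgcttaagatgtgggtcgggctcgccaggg
Nr4a2: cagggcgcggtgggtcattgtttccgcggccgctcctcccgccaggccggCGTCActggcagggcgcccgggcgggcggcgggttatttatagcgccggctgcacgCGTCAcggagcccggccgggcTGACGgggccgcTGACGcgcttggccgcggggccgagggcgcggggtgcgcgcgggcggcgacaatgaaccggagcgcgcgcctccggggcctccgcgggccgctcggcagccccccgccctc
Nr4a3: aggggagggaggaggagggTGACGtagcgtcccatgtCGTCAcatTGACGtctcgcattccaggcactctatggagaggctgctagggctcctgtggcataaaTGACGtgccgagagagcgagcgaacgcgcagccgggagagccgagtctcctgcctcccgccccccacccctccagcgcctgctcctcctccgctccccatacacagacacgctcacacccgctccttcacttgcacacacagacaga
Fos: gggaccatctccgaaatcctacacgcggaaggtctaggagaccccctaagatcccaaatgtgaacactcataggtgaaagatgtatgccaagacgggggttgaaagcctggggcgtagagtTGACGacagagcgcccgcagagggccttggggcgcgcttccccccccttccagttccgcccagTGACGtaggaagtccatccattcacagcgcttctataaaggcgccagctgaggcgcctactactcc
Fosb: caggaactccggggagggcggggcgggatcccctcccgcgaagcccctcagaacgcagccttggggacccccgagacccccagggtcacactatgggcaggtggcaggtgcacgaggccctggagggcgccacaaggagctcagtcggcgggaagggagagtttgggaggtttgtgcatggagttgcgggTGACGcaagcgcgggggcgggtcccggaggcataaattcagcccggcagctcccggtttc
These windows lie at chr15:101266596-101266845 on the plus strand for Nr4a1, chr2:57124004-57124253 on the minus strand for Nr4a2, chr4:48045055-48045304 on the plus strand for Nr4a3, chr12:85473640-85473889 on the plus strand for Fos and chr7:19310046-19310295 on the minus strand for Fosb.

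The 3 NR4A genes each held 4 copies of the TGACG core. In the knockout Nr4a1 was lower and Nr4a2 higher, and Nr4a3 was higher with the limit on its low counts given below. A link between the cores and these changes was not tested. In Nr4a1 the cores began at positions -233, -213, -69 and -40 from the start, all on the opposite strand. The matches in Nr4a2 began at -200, -144, -123 and -111, and those in Nr4a3 at -231, -213, -205 and -147. Fos held 2 cores, at -129 and -66, and a TATA box match, TATAAA, at -33, while Fosb held 1 core at -60. Of the 8 members in the RefSeq table, 6 had at least 1 core; Fosl1 and Egr1 were not matched. Among all 32851 windows of the same length in that table, 17.8% held at least 1 core on either strand and 0.137% held at least 4. The EGR site GCGNGGGCG was found in 4 members, Fosb, Fosl2, Nr4a1 and Nr4a2, and in 4.70% of all windows. It overlapped none of the cores in them. TATAAA was found in Fos and, at -164 on the opposite strand, in Nr4a2, and in 12.4% of all windows. None of the 8 members in the RefSeq table held the full element TGACGTCA in its window. That element contains the core and lay in 1.55% of all windows. These 8 windows also had no match to TGANTCA, a form of the AP-1 site (6.75%), to the NR4A site AAAGGTCA (1.34%) or to an SRF CArG box (1.47%). Other forms of these sites were not searched, and the Jun window holds TGACATCA, a longer run that TGANTCA cannot match. Fosl1 and Egr1 had no window to search, and sites further upstream of any member were not tested. Both strands were searched. The NR4A windows were rich in G and C, with 74.4% in Nr4a1, 80.0% in Nr4a2 and 63.6% in Nr4a3, against a median of 52.4% over all windows. A match describes the letters and is no evidence that a factor binds there.

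**Figure D1:**
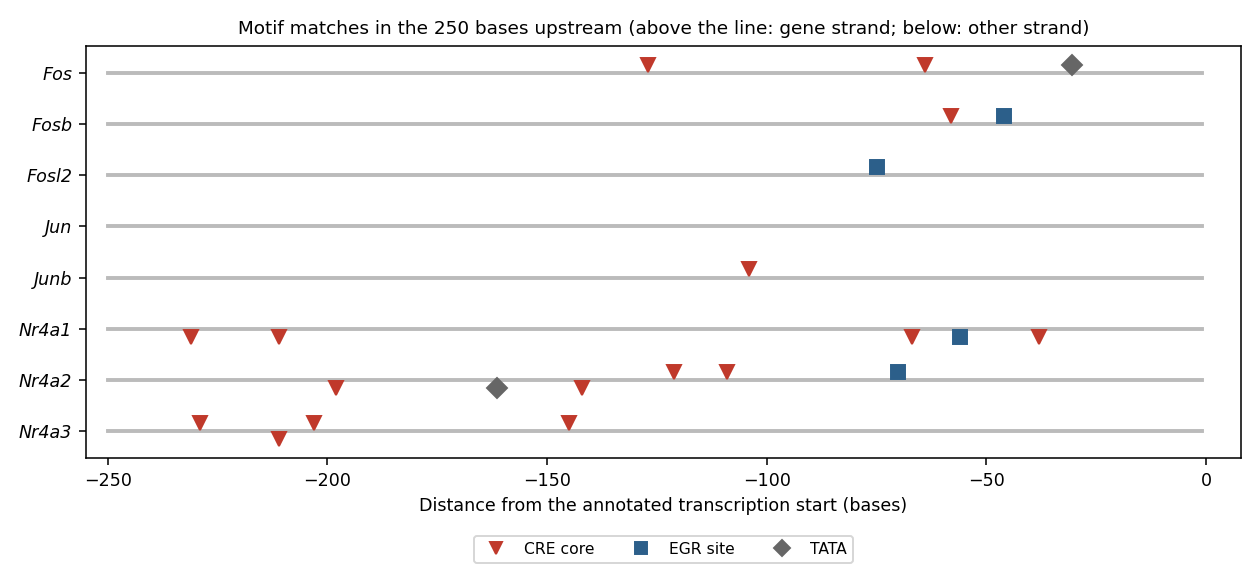
Motif matches in the 250 bases upstream of 8 members. The horizontal axis gives the distance from the annotated transcription start in bases; triangles are cores of the cAMP response element, squares EGR sites and diamonds TATA matches, drawn above the line for the gene's strand and below it for the other strand. Nr4a1, Nr4a2 and Nr4a3 each carry 4 triangles, against 2 in Fos, 1 in Fosb, 1 in Junb and none in Jun or Fosl2.

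The libraries held 21441601 to 25715008 counts in the knockout and 18837263 to 21101904 in the parental line, and 1 count equalled 0.0388 to 0.0515 CPM, which is the count scaled by the TMM-adjusted library size. Stk11 had 34.7 ± 0.852 CPM in knockout and 66.2 ± 1.79 CPM in parental libraries (SD, n = 4 each), so its mRNA was lower in all 4 knockout libraries but not lost. Knockout replicate 3 stood apart: the chi-square of counts per degree of freedom was 14.1 to 20.4 in its pairs with the other knockout libraries and at most 9.51 in every other pair within a genotype. The summed level of 7 epithelial markers was 8001 to 8952 CPM in knockout and 9300 to 9785 CPM in parental libraries; Krt19 rose, while Krt7 fell to 317 ± 35.7 CPM in the knockout against 1180 ± 25.4 CPM in the parental line, and Krt18 and Epcam fell too. For 4 alveolar markers the sum was 0.694 to 1.78 CPM in knockout and 0.666 to 1.81 CPM in parental libraries. Nearly all of it was Napsa, at 1.07 ± 0.490 CPM in knockout and 1.31 ± 0.469 CPM in parental libraries (SD, n = 4 each), while Nkx2-1, Sftpc and Sftpb had at most 1 count over each genotype. The summed level of 5 macrophage markers was 12.9 to 25.4 CPM in knockout and 46.3 to 52.9 CPM in parental libraries, nearly all of it Cd68, with Adgre1 at 0 in all libraries and Ptprc and Itgam each at 0 counts over the knockout and 1 count over the parental libraries. The sum of 6 fibroblast markers was 2.02 to 3.07 CPM in knockout and 3.86 to 5.61 CPM in parental libraries, with Col1a2 and Lum at 0. For 4 endothelial markers it was 3.41 to 4.80 CPM in knockout and 1.05 to 1.85 CPM in parental libraries, with Kdr at 0. Nearly all of this sum was Cdh5, at 4.17 ± 0.623 CPM in knockout and 1.36 ± 0.326 CPM in parental libraries (SD, n = 4 each). Pecam1 had 11 counts over the knockout and 5 over the parental libraries, and Tek 0 over the knockout and 4 over the parental libraries. The part of these markers in the results on the members was not tested.

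Most members were more abundant in the knockout. Fos, Fosl1, Fosl2, Jun, Junb, Nr4a2 and Nr4a3 rose, Fosb and Nr4a1 fell, and Egr1 did not pass the test. That is 7 members higher and 2 lower at an adjusted p under 0.05 by edgeR's quasi-likelihood test, where 34.4% of all 13707 tested genes were higher, 33.6% were lower and 68.0% passed in either direction. The fitted log2 fold changes, knockout over parental, had a median of 0.66 over the 10 members and 0.01 over all tested genes. Nr4a3 passed the filter on low counts only through its knockout libraries, so it had to differ; without it, 6 of 9 members rose and 2 fell, and the median was 0.65. In 9 members the knockout libraries lay wholly above (7 members) or wholly below (2 members) the parental ones, against 30.5% of all tested genes above, 30.2% below and 60.6% in either direction; without Nr4a3 the count was 6 above and 2 below of 9. Members past the test that changed at least 2-fold were Fos, Nr4a2 and Nr4a3, 3 of 10, or 2 of 9 without Nr4a3, against 16.4% of all tested genes. In bulk RNA a change in the share of cells that express a gene and a change in RNA per cell cannot be told apart.

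**Figure D2:**
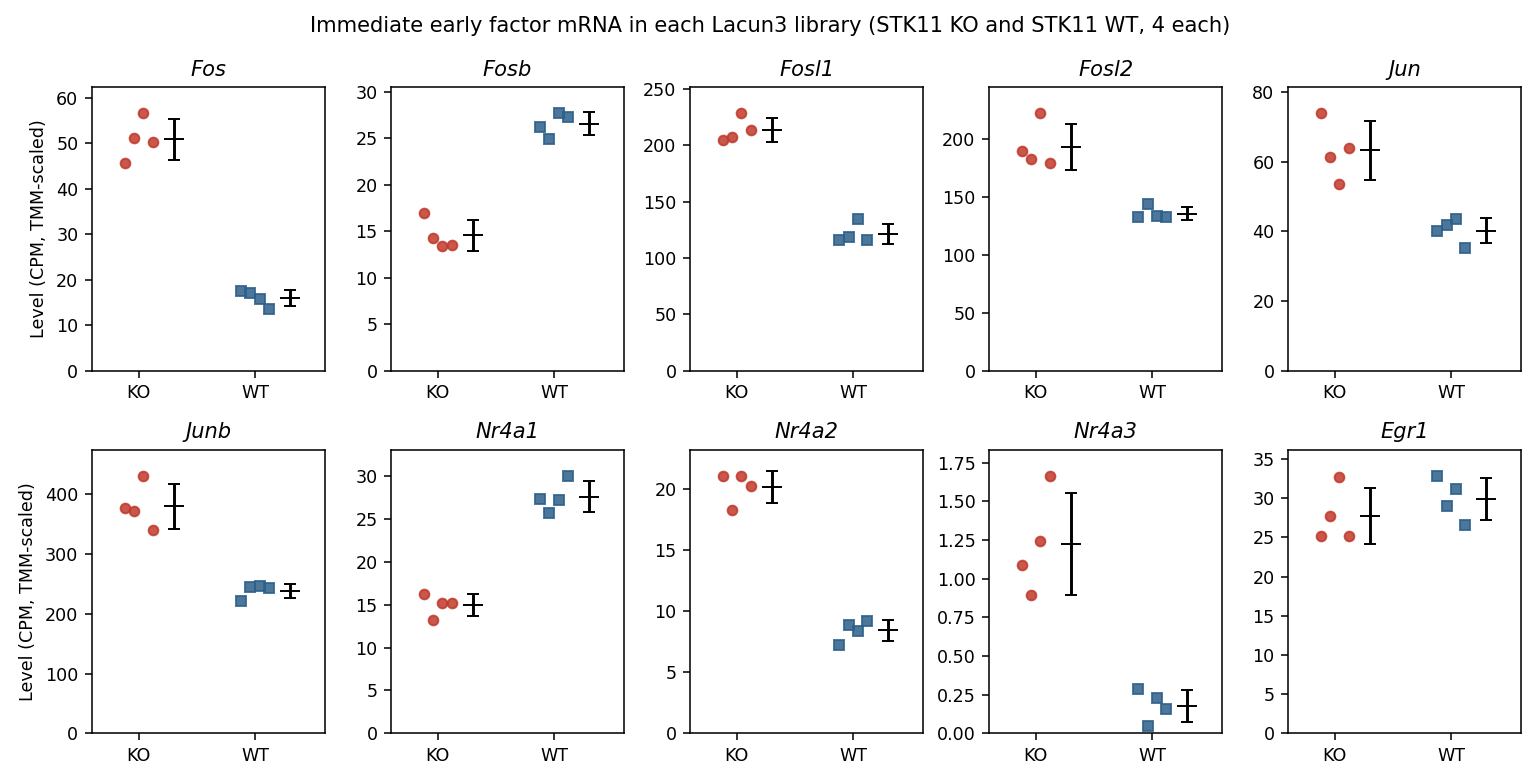
Level of each member in every library, in CPM on a linear axis from 0. Circles are the 4 STK11 KO libraries, squares the 4 STK11 WT libraries, and the black marks show the mean with its SD; in 9 panels the groups are apart, and in that of Egr1 they overlap.

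Among the FOS genes, Fos, the prototype immediate early gene, showed the largest fold of the well-counted members. Fos (ENSMUSG00000021250.14, chr12:85520664-85524047, plus strand, GRCm39) had 45.6, 51.2, 56.7 and 50.2 CPM in knockout libraries, against 17.6, 16.99, 15.9 and 13.6 CPM in parental libraries. The lowest knockout library lay well above the highest parental library. The fitted fold was 3.18, with a 95% interval of 2.84 to 3.56 from its SE (log2 fold change 1.67 ± 0.08, SE; edgeR adjusted p = 4.92e-14). Fosl1 (ENSMUSG00000024912.7, chr19:5497575-5505974, plus strand), which encodes FRA1, had 204, 208, 229 and 214 CPM in knockout and 116, 119, 135 and 116 CPM in parental libraries. It was the most abundant FOS gene per length in both lines and rose 1.76-fold (interval 1.62 to 1.90; edgeR adjusted p = 2.97e-11). Fosl1 overlaps Ccdc85b on the other strand over 2767 bp, and whether reads were counted by strand is not stated; Ccdc85b had 2672 counts over the knockout and 2773 over the parental libraries. Fosl2 (ENSMUSG00000029135.11, chr5:32293145-32315186, plus strand), which encodes FRA2, had 190, 183, 223 and 179 CPM in knockout and 133, 144, 134 and 133 CPM in parental libraries. All knockout libraries were higher, knockout replicate 3 the most, and the rise of 1.43-fold was the smallest of the members that rose (interval 1.31 to 1.55; edgeR adjusted p = 2.08e-07).

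Fosb went the other way. Fosb (ENSMUSG00000003545.4, chr7:19036621-19043976, minus strand), a FOS protein that also exists as a truncated form lacking the end of the transactivation domain, had 16.98, 14.3, 13.5 and 13.6 CPM in knockout libraries, against 26.3, 24.96, 27.7 and 27.3 CPM in parental libraries. No knockout library reached a parental one, and the log2 fold change was -0.87 ± 0.08 (SE; edgeR adjusted p = 4.11e-09), a level 54.7% of the parental. The gene counts do not separate its splice forms.

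Per length, the FOS pool was larger in the knockout and its make-up had shifted within the minor members. The sum of the 4 FOS genes, in CPM per kb of exon, was 149 ± 8.68 in knockout and 84.8 ± 4.63 in parental libraries (SD, n = 4 each), 1.76 times as high (exact permutation test over 70 assignments, two-sided p = 0.0286, the smallest possible; adjusted p = 0.0371 over 13 family values). Fosl1 made up 70.5% ± 0.782 of the pool in knockout and 70.4% ± 1.64 in parental libraries, a difference of 0.143 percentage points, and the groups overlapped (exact permutation p = 0.83, adjusted 0.83). The share of Fos was 14.5% ± 0.626 in knockout and 8.04% ± 0.919 in parental libraries, and that of Fosb 1.57% ± 0.246 in knockout and 5.02% ± 0.297 in parental libraries. Fosl2 fell as a share, to 13.4% ± 0.745 in the knockout against 16.6% ± 1.06 in the parental line, although its own level rose. For the shares of Fos, Fosb and Fosl2 the groups did not overlap (exact permutation p = 0.0286 and adjusted p = 0.0371 for each). Counted without division by length, the share of Fosl1 was 4.76 percentage points higher in the knockout (exact permutation test, adjusted p = 0.0338), so the finding for Fosl1 depends on the gene lengths, which came from a GENCODE annotation of an earlier build.

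Both JUN members rose by a similar factor. Jun (ENSMUSG00000052684.6, chr4:94937271-94940459, minus strand), a strong activator that pairs with FOS proteins, had 74.0, 61.5, 53.7 and 63.9 CPM in knockout and 40.2, 41.9, 43.5 and 35.3 CPM in parental libraries. The groups did not overlap, and the fold was 1.57 (interval 1.40 to 1.76; edgeR adjusted p = 8.12e-07). Here knockout replicate 3 was the lowest of its group, unlike for Fos, Fosl1, Fosl2, Junb and Egr1, for which it was the highest. Junb (ENSMUSG00000052837.8, chr8:85701113-85705347, minus strand), a weaker activator that can also restrain JUN, was the most abundant member per length. It had 376, 371, 431 and 340 CPM in knockout and 221, 244, 246 and 242 CPM in parental libraries, a fold of 1.59 (interval 1.46 to 1.74; edgeR adjusted p = 3.70e-09). Junb overlaps Prdx2 on the other strand over 351 bp, and Jun overlaps the lncRNA Junos over 689 bp; Prdx2 had 20603 counts over the knockout and 16610 over the parental libraries, and Junos 182 over the knockout and 90 over the parental libraries.

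Jund, the remaining JUN gene and no immediate early gene in most cells, was included to complete the family. Its level was 233 ± 29.1 CPM in knockout and 241 ± 14.6 CPM in parental libraries (SD, n = 4 each), which overlapped (log2 fold change -0.05 ± 0.07, SE; edgeR adjusted p = 0.523). The JUN sum was 324 ± 24.2 CPM per kb in knockout and 261 ± 13.0 in parental libraries. Junb held 50.9% ± 3.98 of that sum in knockout and 39.7% ± 0.582 in parental libraries, and Jund 43.0% ± 3.34 in knockout and 55.4% ± 1.06 in parental libraries. For the sum and these 2 shares the groups did not overlap (exact permutation p = 0.0286, adjusted p = 0.0371). The share of Jun, 6.13% ± 0.810 in knockout and 4.85% ± 0.516 in parental libraries, did not pass (exact permutation p = 0.0857, adjusted p = 0.101). Per length Junb was the leading JUN transcript in every knockout library and Jund in every parental library, though in knockout replicate 1 the shares of Junb and Jund were close, at 46.8% and 46.6%. Without division by length Junb lay above Jund in parental replicate 2, at 244.4 against 242.9 CPM, and in parental replicate 3, at 245.8 against 242.8 CPM. The lead of Jund in the parental line therefore depends on the gene lengths.

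**Figure D3:**
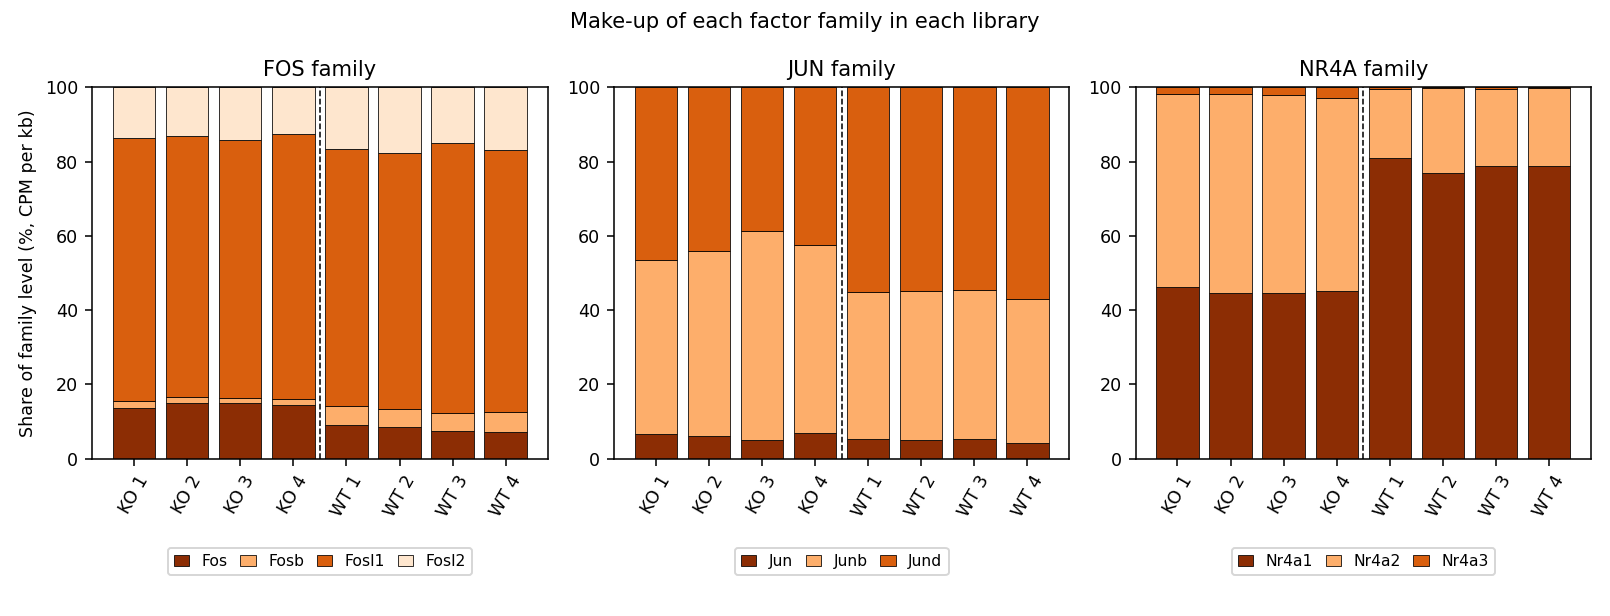
Share of each gene in the summed level of its family, in percent of CPM per kb, for every library, with STK11 KO left of the dashed line and STK11 WT right of it. Nr4a1 takes 44.6% to 46.3% of the NR4A bar in knockout libraries and 76.9% to 81.0% in parental libraries, while Fosl1 takes about the same part of the FOS bar in both groups.

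The NR4A genes diverged. Nr4a1 (ENSMUSG00000023034.8, chr15:101152150-101172676, plus strand), which encodes NUR77, had 16.3, 13.2, 15.2 and 15.2 CPM in knockout libraries, against 27.3, 25.7, 27.2 and 30.1 CPM in parental libraries. All knockout libraries were lower, at 54.4% of the parental level (edgeR adjusted p = 2.29e-09). It overlaps the lncRNA Gm56721 on the same strand over 2740 bp, which had 96 counts over the knockout and 152 over the parental libraries. Nr4a2 (ENSMUSG00000026826.14, chr2:56996842-57014015, minus strand), which encodes NURR1, had 21.1, 18.3, 21.1 and 20.2 CPM in knockout and 7.23, 8.89, 8.34 and 9.21 CPM in parental libraries. Its groups were far apart, with a fold of 2.40 (interval 2.11 to 2.73; edgeR adjusted p = 5.59e-11). Nr4a3 (ENSMUSG00000028341.10, chr4:48045153-48086447, plus strand), which encodes NOR1, was close to the detection limit, with 22, 19, 32 and 36 counts in knockout and 6, 1, 5 and 3 counts in parental libraries. These counts correspond to 1.22 ± 0.328 CPM in knockout and 0.179 ± 0.103 CPM in parental libraries (SD, n = 4 each). The fitted log2 fold change was 2.74 ± 0.39 (SE), the least precise of the members, and is given as a description only, since the filter on low counts admitted the gene through its knockout libraries.

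The NR4A sum showed no detectable difference while its make-up turned over. It was 9.45 ± 0.708 CPM per kb in knockout and 9.96 ± 0.613 in parental libraries (SD, n = 4 each; exact permutation p = 0.429, adjusted p = 0.464), and the groups overlapped. Nr4a1 formed 45.2% ± 0.808 of the sum in knockout and 78.9% ± 1.64 in parental libraries. Nr4a2 formed 52.7% ± 0.908 in knockout and 20.8% ± 1.81 in parental libraries, so that in each of the 4 knockout libraries it exceeded Nr4a1 and in each of the 4 parental libraries it lay below it. Nr4a3 made up 2.15% ± 0.521 in knockout and 0.301% ± 0.181 in parental libraries, with the same limit. For the shares of Nr4a1 and Nr4a2 the groups did not overlap (exact permutation p = 0.0286, adjusted p = 0.0371).

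Egr1 was the member without a detected change. Egr1 (ENSMUSG00000038418.8, chr18:34992876-34998037, plus strand) had 25.2, 27.7, 32.7 and 25.2 CPM in knockout and 32.9, 29.0, 31.2 and 26.6 CPM in parental libraries. The groups overlapped through knockout replicate 3, the highest of its group, and parental replicate 4, the lowest of its group. The fold was 0.929 with a 95% interval of 0.826 to 1.04 (edgeR adjusted p = 0.279), which leaves room for a fall of the mean but not for a change like that of Fos. Without knockout replicate 3 the log2 fold change was -0.20 and passed (edgeR adjusted p = 0.0210); over its 17 alternatives the adjusted p ran from 0.0210 to 0.596.

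**Figure D4:**
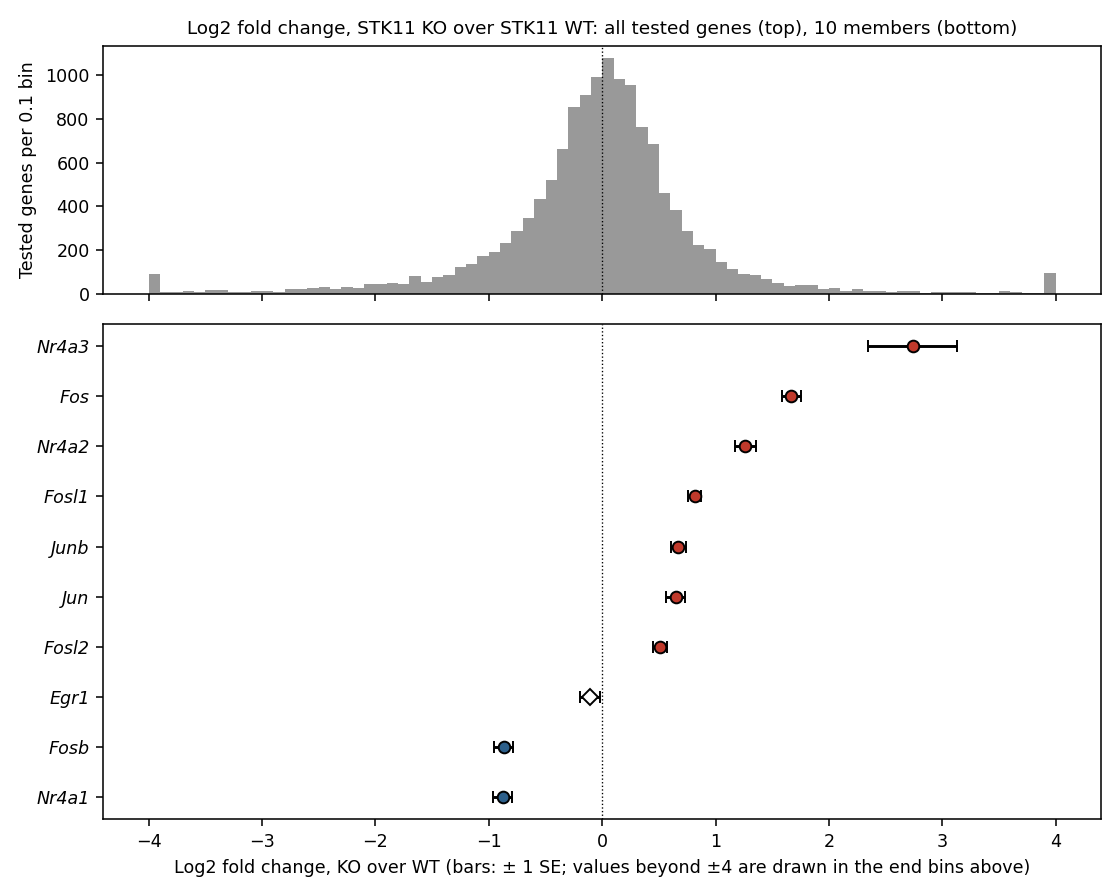
Log2 fold change, STK11 KO over STK11 WT. The top panel counts all 13707 tested genes in bins, and the lower panel shows each member with its SE, red for higher, blue for lower and white for not passed; Nr4a3 and Fos lie far to the right, Fosb and Nr4a1 to the left, and Egr1 near 0.

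Levels of different genes were compared per kb of exon, so the order depends on the lengths used. These took in all exons of a gene in the annotation of the earlier build. For Junb they came to 2301 bp, while its counted entry spans 4235 bp. In the knockout the order was Junb (165 ± 16.4 CPM per kb), Fosl1 (105 ± 5.28), Fos (21.7 ± 1.94), Fosl2 (20.0 ± 2.05), Jun (19.8 ± 2.63), Egr1 (6.18 ± 0.788), Nr4a2 (4.97 ± 0.322), Nr4a1 (4.27 ± 0.371), Fosb (2.33 ± 0.264) and Nr4a3 (0.204 ± 0.0548). Fos, Fosl2 and Jun could not be ranked there, since neighbours overlapped between libraries, and Nr4a2 and Nr4a1 overlapped as well although Nr4a2 was higher within each library. In the parental line the order was Junb (104 ± 5.11), Fosl1 (59.7 ± 4.48), Fosl2 (14.0 ± 0.578), Jun (12.6 ± 1.12), Nr4a1 (7.86 ± 0.513), Fos (6.81 ± 0.753), Egr1 (6.67 ± 0.604), Fosb (4.25 ± 0.196), Nr4a2 (2.07 ± 0.214) and Nr4a3 (0.0299 ± 0.0173), all as mean ± SD of 4 libraries. There Nr4a1 overlapped Fos and Fos overlapped Egr1. Junb and Fosl1 thus led in both lines. Fos lay level with Fosl2 and Jun in the knockout, but below both in every parental library.

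The members' spread between replicates was that of ordinary genes. Their median biological coefficient of variation was 0.0709, against 0.0702 over all tested genes. Nr4a3 had the highest, 0.166, above 92.4% of tested genes, and Fosl1 the lowest, 0.0599. Deviations from the group mean in knockout replicate 3, on the log2 scale, were 0.16 for Fos, 0.10 for Fosl1, 0.21 for Fosl2, 0.19 for Junb and 0.25 for Egr1, but -0.23 for Jun and -0.11 for Fosb. This library therefore did not move all members the same way.

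Compact genes and AU-rich 3′ ends are known traits of immediate early genes. Jun spanned 3189 bp, Fos 3384 bp, Junb 4235 bp and Egr1 5162 bp, against a median of 23973 bp for 11521 tested protein-coding genes. Fosb spanned 7356 bp and Fosl1 8400 bp. Not all members were compact: Nr4a2 at 17174 bp, Nr4a1 at 20527 bp and Fosl2 at 22042 bp were longer than 39.3%, 44.9% and 47.3% of these genes. Nr4a3, at 41295 bp, was longer than 67.8% of them. The pentamer ATTTA, a mark of AU-rich elements that speed mRNA decay, occurred 4 times in the 3′ UTR of Fos and 3 times in that of Nr4a1, or 4.91 and 5.52 times per kb, densities above those of 93.1% and 94.7% of these genes. Junb had 4.12 and Jun 3.24 per kb. Fosb, with 1 copy or 0.466 per kb, was below the median of 1.20, and Fosl1, Fosl2, Nr4a2, Nr4a3 and Egr1 lay between 1.57 and 2.26 per kb. The part of ATTTA in the changes of the members was not tested.

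By the profile over the 8 libraries, the closest other gene among 10195 with at least 5 CPM was Rnf183 for Fos, with a root mean square difference of 0.09 on the log2 scale. For Fosb it was Snx30 (0.05), for Fosl1 Syt7 (0.05), for Fosl2 Kdm5b (0.04), for Jun Foxo3 (0.05) and for Junb Gse1 (0.04). Nr4a1 lay nearest to Sgms2 (0.07), Nr4a2 to Fhip1a (0.08), Nr4a3 to Ceacam1 (0.29) and Egr1 to Zfp623 (0.06). No member's closest gene was the same as another's.

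Relatives and partners of the members changed in both directions. Of 10 tested AP-1 relatives outside the members, 4 rose and 2 fell, where 34.4% of all tested genes rose and 33.6% fell. The median of the log2 fold changes of these relatives was -0.08. Jdp2, a repressor that dimerises with JUN, rose to 68.0 ± 8.21 CPM in the knockout against 21.7 ± 0.650 CPM in the parental line, and Atf2 rose by 0.29 ± 0.05 on the log2 scale (SE). Mafk, a small MAF protein without a transactivation domain, fell by 0.37 ± 0.07 and Atf3, a stress-induced factor, by 0.46 ± 0.11 (SE; largest edgeR adjusted p of the 4 genes 0.000527, for Atf3). Among EGR relatives and the NAB corepressors, Egr3 fell to 5.28 ± 0.633 CPM against 10.2 ± 1.30 CPM in the parental line, and Nab2, itself induced by EGR1, to 27.2 ± 1.84 CPM against 42.2 ± 1.09 CPM, while Nab1 rose to 185 ± 11.8 CPM against 128 ± 6.21 CPM (largest edgeR adjusted p 5.93e-07, for Egr3). Egr2, named here because it completes the 4 tested genes, had a log2 fold change of 0.24 ± 0.29 (SE) and did not pass. The RXR gene Rxra, whose product dimerises with NUR77 and NURR1, rose to 29.9 ± 1.46 CPM in the knockout against 14.1 ± 0.906 CPM in the parental line (edgeR adjusted p = 2.62e-11), and Rxrb did not pass, but was called lower under scaling by library size alone and without knockout replicate 1.

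Other immediate early genes split as well. Of 41 tested, 25 rose and 14 fell (median 0.24), where 34.4% of all tested genes rose and 33.6% fell. Those that fell include Klf2, with 0.446 ± 0.325 CPM in knockout and 1.49 ± 0.277 CPM in parental libraries (SD, n = 4 each). The filter on low counts admitted Klf2 through its parental libraries. Errfi1, a feedback inhibitor of EGFR, rose to 473 ± 32.5 CPM in the knockout against 134 ± 6.67 CPM in the parental line, and Bhlhe40, a transcriptional repressor, to 770 ± 64.0 against 264 ± 23.8 CPM. Ccn2, a matricellular protein and target of YAP and SRF, fell to 19.8 ± 2.41 CPM in the knockout against 459 ± 15.0 CPM in the parental line, and Myc to 354 ± 12.3 against 1006 ± 17.4 CPM (largest edgeR adjusted p of the 4 genes 8.13e-15, for Bhlhe40). Of 7 tested heat shock genes, which respond to handling stress, 2 rose and 4 fell (median -0.39). Hsp90aa1 fell to 751 ± 20.2 CPM against 1327 ± 42.2 CPM and Hspa8 by 0.60 ± 0.06 on the log2 scale, while Dnajb1 and Hsph1 rose with log2 fold changes of 0.50 ± 0.06 and 0.33 ± 0.06 (SE; largest edgeR adjusted p of the 4 genes 3.24e-05, for Hsph1).

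Upstream of the members, 9 of 14 genes of the ERK cascade and its RSK and MSK kinases rose and 1 fell (median 0.21), where 34.4% of all tested genes rose and 33.6% fell. Without TMM scaling, 7 of the 14 rose. Map2k1, the ERK kinase MEK1, rose to 322 ± 5.35 CPM in the knockout against 200.3 ± 2.77 CPM in the parental line (edgeR adjusted p = 2.60e-11). Rps6ka5, which encodes MSK1, a kinase of CREB and histone H3 at immediate early genes, fell to 7.83 ± 1.13 CPM against 21.3 ± 1.26 CPM (edgeR adjusted p = 1.28e-11). Of SRF and its 5 tested partners, none rose and 4 fell (median -0.22), with Mrtfb at -0.40 ± 0.07 and Elk3 at -0.25 ± 0.05 (log2 fold change, SE; largest edgeR adjusted p 0.000294, for Elk3); without knockout replicate 4, 1 of them rose. In the JNK and p38 cascades 5 of 13 genes rose and 4 fell (median 0.09). Mapk8, which encodes JNK1, rose to 45.2 ± 2.62 CPM against 27.6 ± 1.31 CPM and the p38 kinase kinase gene Map2k6 to 42.3 ± 6.19 against 14.2 ± 2.09 CPM. Mapk12 fell to 0.676 ± 0.179 CPM against 4.10 ± 0.576 CPM and Map2k3 by 0.53 ± 0.05 on the log2 scale (SE; largest edgeR adjusted p of the 4 genes 3.96e-09, for Map2k3). Of 9 SIK, CRTC and CREB genes, 5 rose and 3 fell (median 0.14), with Crem at 1.19 ± 0.13 and Atf1 at 0.56 ± 0.07 upward and Sik2 at -0.68 ± 0.06 and Crtc3 at -0.53 ± 0.10 downward (log2 fold change, SE; largest edgeR adjusted p 4.67e-05, for Crtc3).

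Genes of the machinery that removes unstable mRNAs changed in both directions, as all tested genes did. Of 17 AU-rich element binding proteins and CCR4-NOT deadenylase subunits, 9 rose and 6 fell (median 0.15), where 34.4% of all tested genes rose and 33.6% fell. This balance turned to 6 higher and 7 lower when TMM scaling was left out, a setting that called 3924 of all tested genes higher and 5278 lower. Zfp36l1, whose product brings AU-rich mRNAs to decay, fell to 89.2 ± 5.50 CPM in the knockout against 289 ± 12.8 CPM in the parental line, and Khsrp, another decay-promoting binder, fell by 0.35 ± 0.05 on the log2 scale (SE). The CCR4-NOT genes Cnot7 and Cnot9 rose, with log2 fold changes of 0.80 ± 0.05 and 0.37 ± 0.05 (SE; largest edgeR adjusted p of the 4 genes 2.07e-06, for Cnot9).

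Genes in a list of known AP-1 targets were mostly higher. The list was chosen with earlier results of these data known, so its counts are a description only. Of 20 tested, 15 rose, 3 fell and 2 did not pass. Their log2 fold changes had a median of 0.62, beside 34.4% higher, 33.6% lower and a median of 0.01 among all tested genes. The 15 include Mmp3, with 3.24 ± 0.722 CPM in knockout and 0.0359 ± 0.0241 CPM in parental libraries (SD, n = 4 each). Mmp3 passed the filter on low counts only through its knockout libraries, so it had to differ. Mmp13, a collagenase with an AP-1 site known in its promoter, rose to 259 ± 12.5 CPM in the knockout against 48.8 ± 2.82 CPM in the parental line, and Il11, an interleukin-6 family cytokine, to 187 ± 19.7 against 4.99 ± 0.650 CPM. Ccnd1, which encodes cyclin D, fell to 721 ± 29.2 CPM against 2026 ± 67.1 CPM, and the receptor gene Axl to 1006 ± 43.3 against 1958 ± 63.6 CPM (largest edgeR adjusted p of the 4 genes 1.34e-12, for Axl). Of 10 tested genes known as EGR1 targets, 5 rose and 4 fell (median -0.06). Ptges, a prostaglandin E synthase, rose to 702 ± 29.8 CPM against 320 ± 10.4 CPM and Tgfb1 to 322 ± 33.5 against 152 ± 3.85 CPM. Icam1 fell by 1.61 ± 0.08 on the log2 scale and Pdgfb, a growth factor, by 2.79 ± 0.15 (SE; largest edgeR adjusted p of the 4 genes 8.22e-13, for Tgfb1).

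**Figure D5:**
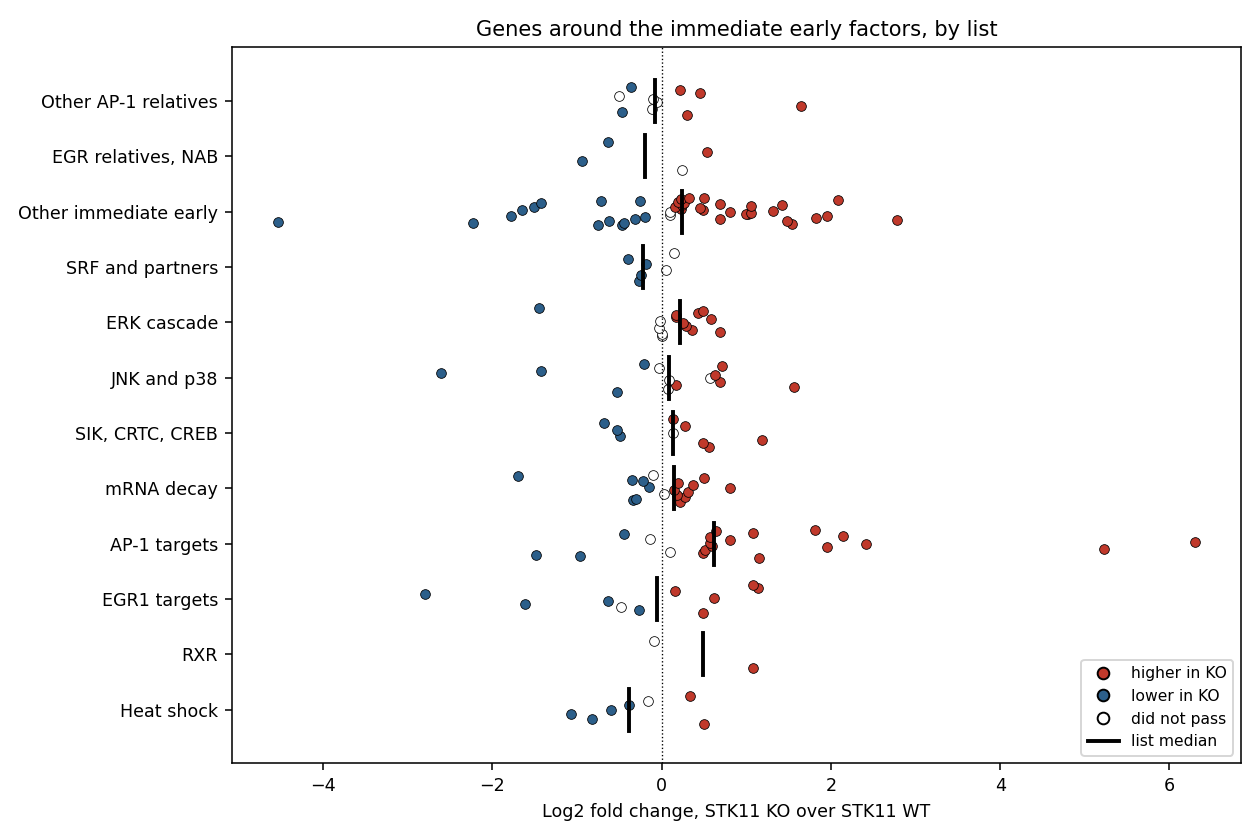
Log2 fold change, STK11 KO over STK11 WT, of every tested gene in 12 lists around the members. Red points passed the test and were higher, blue points passed and were lower, white points did not pass, and the black bar is the list median, highest for AP-1 targets at 0.62 and lowest for heat shock genes at -0.39.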

How the data were processed

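Total RNA of cultured Lacun3 cells was sequenced in 4 STK11 KO and 4 STK11 WT libraries, made from 100 ng of RNA with a stranded mRNA kit and read as pairs of 51 bp, per the labels' protocols. Tools listed, per the submitters' processing notes, were STAR 2.7.9a, featureCounts 1.6.0, FastQC 0.11.8, limma and edgeR, with build GRCm39 and no roles; for strand setting and multi-mapping, nothing is given in the sources used here. The authors deposited raw counts per gene, and a second table of log2 CPM values in voom form, used here only for an alternative.

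The test was edgeR's quasi-likelihood F test (edgeR 4.0.16, R 4.3.3; robust, bias-adjusted, TMM, filterByExpr) on the raw counts of all genes with genotype as the only term, with Benjamini-Hochberg adjustment over 13707 tested genes and a threshold of 0.05. Log2 fold changes are fitted; the SE is the absolute log2 fold change over the square root of F. CPM values are given as mean ± SD. Family sums and shares were compared by exact two-sided permutation (scipy 1.17.1). Lengths are exon unions and 3′ UTRs those of the transcript with the longest coding part in GENCODE M21 (GRCm38), matched for 98.4% of tested genes. Alternatives used limma 3.58.1 and DESeq2 1.42.0. Of these steps, only the edgeR test was tried on simulated data. The p-values measure the spread between cultures of 1 edited and 1 parental line. The members, gene lists and motifs were chosen with earlier results of these data known. Named genes were the members, Stk11 and, for each list, up to 2 genes with the smallest adjusted p in each direction, except where a sentence says otherwise and for Jund; marker lists are given as summed levels, and 1 gene the rule names is not reported here. For likeness, log2 CPM profiles with a prior count of 2 were set to the parental mean. Replicate numbers were not used to pair the libraries in the main test.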

Additional observations from a re-analysis of the deposited data

Results flagged for a closer look

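Among 48 groups of 4 libraries examined, 4 held a value set apart from the other 3, where chance gives about 1 in 20. In parental replicate 3 Fosl1 stood at 135 CPM, above 116 to 119 CPM in the other 3 parental libraries. Fosl2 stood at 144 CPM in parental replicate 2, above 133 to 134 CPM in the others. Junb was low in parental replicate 1, at 221 CPM, below 242 to 246 CPM in the others. The share of Jund in the JUN sum was high in parental replicate 4, at 57.0% against 54.7% to 55.1%. In each case the knockout libraries remained on their own side of this value, at 204 to 229 CPM for Fosl1, 179 to 223 CPM for Fosl2, 340 to 431 CPM for Junb and 38.6% to 46.6% for Jund.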

How the results depend on the processing

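Of 169 recomputed member fold changes, 168 kept their direction and their side of the threshold under other scalings, filters, tests, the replicate block and the leaving out of each library; the exception was Egr1 without knockout replicate 3. Nr4a3 was not tested when at least 1 CPM was required in 4 libraries. With counts not divided by length the share of Fosl1 became 4.76 percentage points higher in the knockout, and the NR4A sum turned to 0.205 CPM above the parental line (exact permutation test, adjusted p = 0.886), from the weighting by length alone. The log2 fold change of Jund ran from -0.13 to 0.00402 with single libraries left out; it turned positive without knockout replicate 4, and the cause was not tested. Leaving out libraries gave 8923 to 9656 genes past the threshold in all. Same-numbered libraries correlated at -0.0985 to 0.0356 in their deviations, and libraries with different numbers at -0.0913 to 0.102. No shift shared by number was seen, which cannot tell whether same-numbered cultures were handled together. With the replicate block 9182 genes passed, 7 members rose and 2 fell. Scaling by library size alone lowered the median log2 fold change of all tested genes to -0.07 and called 3924 genes higher and 5278 lower. The permutation test with 3 libraries in a group cannot reach 0.05, so leaving out libraries gave values only for the family sums and shares. Nr4a3, with 15 parental counts in all, limits what can be said of its fold.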
